A study of Mus musculus with 15 samples.

Results

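Interferons are secreted signals of antiviral defence. Signals from the interferon-alpha/beta receptor reach target genes through a complex with Stat2 and Irf9 at the interferon-stimulated response element (ISRE), and signals from the interferon-gamma receptor through the gamma-activated site (GAS). In the vessel wall, endothelial cells, smooth muscle cells and resident macrophages carry both receptors, and the interferon regulatory factors (IRFs) set how strongly the target genes are transcribed.

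The genes described here are 58 of the 22180 genes with a measured value, and they were selected by symbol. They comprise 7 IRFs, 6 Ifit genes, 6 Ifitm genes, 11 oligoadenylate synthetase (Oas) genes, 14 genes named Ifi, 10 guanylate-binding protein (Gbp) genes, and Isg15, Isg20, Rsad2 and Stat2. Each gene was read from the brightest probe set that names it alone, and no measured value entered the selection otherwise. The symbol rule also takes in relatives that are not classical interferon targets, such as the bone-restricted Ifitm5.

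RNA came from the aorta of DBA/2NCrl mice, an inbred strain, that were 8 weeks old when the feeding began and ate their diet for 5 days. The high-phosphate diet (HPD) held 20.2 g of phosphorus per kg and the standard chow diet (SCD) 7.0 g per kg. There were 4 abdominal HPD arrays, 4 abdominal SCD arrays, 3 thoracic HPD arrays and 4 thoracic SCD arrays, which the titles call biological replicates. No label says whether segments or arrays share an animal, and the p-values measure the spread between these arrays. Values are log2 intensities. Each change is a difference of group means on that scale, with its SE from the limma fit.

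The smooth muscle list averaged 8.07 to 9.41 on every array, with Acta2 at 10.87 to 12.08, as the aortic label calls for. Other tissues moved with the arrays. The mean of 11 T and NK cell markers was 7.47 to 8.44 on abdominal HPD arrays 1, 2 and 4 and abdominal SCD arrays 2 and 4. It was 5.62 to 6.15 on the other 3 abdominal arrays and 5.50 to 5.86 on thoracic arrays. The mean of 10 hepatocyte markers reached 8.18 and 10.15 on abdominal HPD arrays 3 and 4, and was 5.38 to 6.64 elsewhere. In tissue RNA, fewer cells of a type and less RNA per cell cannot be told apart.

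Promoters of 5 of the genes are shown because they place the ISRE core next to the transcription start in a gene that rose with the diet, in its neighbours on chromosome 1, and in classical targets that passed no diet test. Sequences are from RefSeq on GRCm38.p6, run from 250 bases before to 50 after the start, 5′ to 3′ on the gene's strand, and capitals mark matches to GAAANNGAAA or its reverse complement TTTCNNTTTC.
Ifi207, chr1:173741760-173742059, minus strand: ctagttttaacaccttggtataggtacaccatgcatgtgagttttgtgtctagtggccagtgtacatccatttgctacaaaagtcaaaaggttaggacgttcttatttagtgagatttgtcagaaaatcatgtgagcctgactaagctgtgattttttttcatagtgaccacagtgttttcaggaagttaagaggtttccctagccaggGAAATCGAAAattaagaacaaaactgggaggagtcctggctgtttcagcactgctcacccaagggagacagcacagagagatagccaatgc
Ifi213, chr1:173599223-173599522, minus strand: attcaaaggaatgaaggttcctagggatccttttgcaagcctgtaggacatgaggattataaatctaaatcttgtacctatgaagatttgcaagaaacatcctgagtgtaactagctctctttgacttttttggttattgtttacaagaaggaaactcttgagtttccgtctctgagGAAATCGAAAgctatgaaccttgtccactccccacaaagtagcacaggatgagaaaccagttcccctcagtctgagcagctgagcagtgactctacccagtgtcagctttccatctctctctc
Ifi214, chr1:173535908-173536207, minus strand: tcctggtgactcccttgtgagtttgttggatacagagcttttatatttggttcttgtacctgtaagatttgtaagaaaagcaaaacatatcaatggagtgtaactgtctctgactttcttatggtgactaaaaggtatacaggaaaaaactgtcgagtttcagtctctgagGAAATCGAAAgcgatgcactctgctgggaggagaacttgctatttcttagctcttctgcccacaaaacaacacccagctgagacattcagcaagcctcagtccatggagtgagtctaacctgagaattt
Isg15, chr4:156200769-156201068, minus strand: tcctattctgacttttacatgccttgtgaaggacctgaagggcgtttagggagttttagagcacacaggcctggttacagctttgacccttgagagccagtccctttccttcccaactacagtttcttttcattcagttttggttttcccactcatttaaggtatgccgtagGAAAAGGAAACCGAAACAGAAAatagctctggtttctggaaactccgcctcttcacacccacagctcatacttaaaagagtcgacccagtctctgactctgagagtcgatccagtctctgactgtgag
Ifit1, chr19:34640639-34640938, plus strand: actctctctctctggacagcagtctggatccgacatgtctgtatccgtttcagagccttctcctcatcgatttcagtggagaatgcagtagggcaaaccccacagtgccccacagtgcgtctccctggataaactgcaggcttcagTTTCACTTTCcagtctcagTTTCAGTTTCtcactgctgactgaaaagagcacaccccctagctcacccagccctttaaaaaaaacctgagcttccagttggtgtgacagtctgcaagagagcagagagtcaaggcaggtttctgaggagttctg

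Ifi207, Ifi213 and Ifi214, of the PYHIN family of nucleic acid-binding proteins, share the 10 letters GAAATCGAAA at 41, 73 and 79 bases upstream of their starts. Isg15, a ubiquitin-like modifier, has 3 overlapping matches, and Ifit1, which binds foreign RNA ends, has 2. Of the 44 genes matched to a RefSeq promoter, 23 (52.3%) held the ISRE core on either strand, against 3.99% of all 27025 genes and 3.44% of all 32851 promoters. The GAS core TTCNNNGAA was in 11 of 44, against 9.55% of all genes and 8.30% of all promoters. The diet-called Ifi27, Gbp10 and Gbp11 are not among the 44, nor is any other Gbp gene of chromosome 5. ISRE matches were counted in the 4 Gbp genes of chromosome 3, 5 of 6 Ifit promoters and 3 of 7 Oas promoters, but in 1 of 7 IRF promoters. A match in this window is a description of the reference letters, and the sequence of DBA/2NCrl mice was not read here.

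The first comparison asked how the phosphate-rich diet changed these genes in the abdominal aorta. Ifi27 and the guanylate-binding protein genes Gbp11 and Gbp10 fell, and Ifi207 rose. The other 54 genes did not pass the test. The 4 of 58 genes called (6.9%) stand against 7.01% of all genes, so the share called was near the background (1 higher, against 1.95%, and 3 lower, against 5.06%). For 2 genes that were higher and 3 that were lower on HPD, no HPD value overlapped the SCD values, against 4.12% and 7.75% of all genes. The median change of the 58 was -0.0049, against -0.0080 over all genes.

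Ifi27 encodes a small membrane protein of mitochondria and the nuclear envelope. Its values were 9.67, 9.66, 9.86 and 9.63 on abdominal HPD arrays and 11.01, 10.78, 10.85 and 10.63 on abdominal SCD arrays. Every HPD value lay below every SCD value. The change was -1.11 ± 0.106, a 2.16-fold fall (limma, adjusted p = 4.13e-05). Ifi27 lies within the bounds of Ifi27l2a in RefSeq, so its signal cannot be assigned with certainty to either.

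Gbp11, which RefSeq annotates as a transcribed pseudogene, lies in a cluster of 6 Gbp genes on chromosome 5. Its values were 5.42, 5.27, 5.34 and 5.55 on abdominal HPD arrays and 6.93, 6.53, 6.23 and 6.44 on abdominal SCD arrays. The groups did not overlap, with means of 5.39 ± 0.12 on HPD arrays and 6.53 ± 0.29 on SCD arrays (SD, n = 4 each). The change was -1.14 ± 0.172, a 2.2-fold fall (adjusted p = 0.000805). Gbp10, a neighbour in the same cluster, encodes a GTPase of the family that attacks pathogen-containing vacuoles. It read 7.06, 6.37, 6.48 and 6.69 on abdominal HPD arrays and 6.99, 7.44, 7.20 and 7.63 on abdominal SCD arrays. HPD array 1 overlapped the SCD range, and the change was -0.66 ± 0.18 (adjusted p = 0.0367). Whether probes of these neighbours share signal was not tested.

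Ifi207 belongs to the PYHIN cluster on chromosome 1, which holds 9 of the Ifi genes. It read 6.74, 6.59, 7.34 and 7.21 on abdominal HPD arrays and 5.96, 6.29, 5.07 and 6.15 on abdominal SCD arrays. Every HPD value was the higher. The change was 1.10 ± 0.248, a 2.14-fold rise (adjusted p = 0.0131). No other gene of the PYHIN cluster passed the test.

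**Figure D1:**
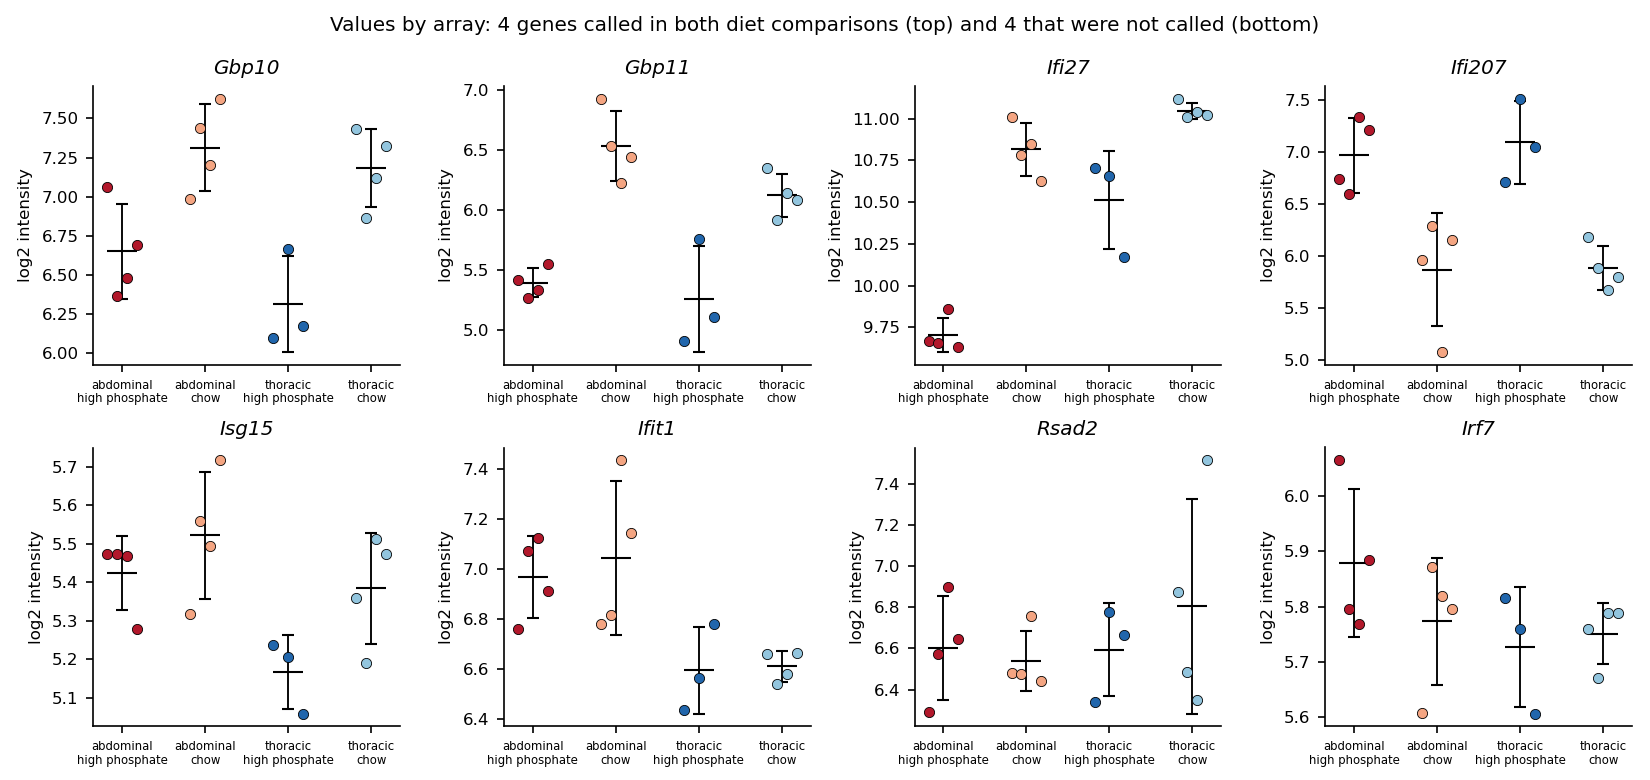
Log2 intensity on each array (points) with group mean and SD (black) for Gbp10, Gbp11, Ifi27 and Ifi207 in the top row and Isg15, Ifit1, Rsad2 and Irf7 in the bottom row. From left to right the groups are abdominal high phosphate, abdominal chow, thoracic high phosphate and thoracic chow. In the top row the high-phosphate and chow means differ in both segments, with Ifi27 near 9.70 against 10.82 in abdominal aorta, while the bottom row passed no diet test.

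Without the 5 abdominal arrays high in lymphocyte markers, which leaves only HPD array 3 on that diet, 1 gene was called, Ifi27 at -1.07 (adjusted p = 0.0341). Gbp11 was then at -1.24 (adjusted p = 0.168) and Ifi207 at 1.82 (adjusted p = 0.061), and the lone array was assumed to vary like the other groups. Without HPD arrays 3 and 4, 2 genes were called, Ifi27 and Gbp11, and Ifi207 was at 0.80 (adjusted p = 0.112). Gbp10 lost its call when HPD array 2, 3 or 4 or SCD array 2, 3 or 4 was left out (adjusted p of 0.0586 to 0.119).

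In the thoracic aorta the same 4 genes passed the test, in the same direction. That is 6.9% of the 58 genes, against 2.47% of all genes (1 higher, against 1.39%, and 3 lower, against 1.08%). Among the 58, 3 genes that were higher and 4 that were lower on HPD had no overlap of arrays, against 7.09% and 6.67% of all genes. The chromosome 5 cluster again held both Gbp genes that fell. The median change was -0.0067, against -0.011 over all genes.

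Thoracic Ifi27 was at 10.71, 10.66 and 10.17 on HPD arrays and 11.12, 11.01, 11.04 and 11.02 on SCD arrays. Its HPD values were all lower, and the change was -0.53 ± 0.114 (adjusted p = 0.0234). Thoracic Gbp11 was at 4.91, 5.76 and 5.11 on HPD arrays and 6.35, 5.92, 6.14 and 6.08 on SCD arrays. The groups did not overlap, and the change was -0.87 ± 0.186 (adjusted p = 0.0234).

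Thoracic Gbp10 was at 6.10, 6.66 and 6.17 on HPD arrays and 7.43, 6.87, 7.12 and 7.32 on SCD arrays. Here its groups were apart, and it fell by 0.87 ± 0.194 (adjusted p = 0.0273). Thoracic Ifi207 was at 6.72, 7.52 and 7.05 on HPD arrays and 6.18, 5.89, 5.68 and 5.80 on SCD arrays. All HPD values were higher, and the change was 1.21 ± 0.268 (adjusted p = 0.0266).

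Gbp4, between Gbp9 and Gbp10 in the RefSeq order of the cluster, did not pass the test. It read 6.45, 6.42 and 6.56 on thoracic HPD arrays and 7.70, 6.85, 7.53 and 7.59 on thoracic SCD arrays. The groups were apart, with a difference of -0.94 ± 0.27 (adjusted p = 0.0854). It was called without the 5 abdominal arrays high in lymphocyte markers (adjusted p = 0.0262). In the abdominal aorta Gbp4 read 8.11, 7.84, 6.72 and 7.66 on HPD arrays and 7.46, 7.99, 7.50 and 7.94 on SCD arrays, and the groups overlapped. Ifi205, a PYHIN gene, read 7.67, 8.71 and 7.31 on thoracic HPD arrays and 6.92, 7.07, 7.17 and 7.23 on thoracic SCD arrays, a difference of 0.80 (adjusted p = 0.31). Ifi30, a lysosomal thiol reductase gene of antigen processing, read 8.83, 8.83 and 9.12 on thoracic HPD arrays and 8.17, 8.20, 8.67 and 8.35 on thoracic SCD arrays. Its groups were apart as well, yet the difference of 0.58 did not pass (adjusted p = 0.524).

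With 3 HPD arrays the thoracic calls were open to single arrays. None of the 4 genes was called without thoracic HPD array 3 or thoracic SCD array 1 or 4, with adjusted p of 0.0511 to 0.113, and 2, Ifi27 and Ifi207, were called without HPD array 1. Leaving out HPD array 2 or SCD array 2 or 3 ended the call of Ifi207 (adjusted p of 0.0597 to 0.134). The direction of the 4 genes was kept each time. Other settings ended thoracic calls as well. Gbp11 and Ifi27 were not called with only the groups compared. Gbp11 was also not called without the abdominal arrays high in lymphocyte markers, and Gbp10 was not called with the replicate block. None of these fits reversed a direction.

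Averaged over segments the same 4 genes were called, against 10.7% of all genes (1 higher, against 4.53%, and 3 lower, against 6.18%). The changes were -0.82 ± 0.0778 for Ifi27 (adjusted p = 1.43e-05), -1.0 ± 0.127 for Gbp11 (adjusted p = 0.000104), 1.15 ± 0.183 for Ifi207 (adjusted p = 0.000665) and -0.77 ± 0.132 for Gbp10 (adjusted p = 0.00125). These 4 average calls held in each of the 25 alternatives run. Without abdominal HPD array 3, 7 genes were called, a count given without the share of all genes called in that fit. Irf2, a constitutive regulator of the ISRE, was next at 0.27 (adjusted p = 0.0608), then Gbp6 at -0.31 (adjusted p = 0.0627). The difference between the diet changes of the segments, abdominal minus thoracic, was called for 0 of 58 genes and for 0% of all genes with limma at adjusted p under 0.05. At an unadjusted p under 0.05 it held 2 of the 58, Ifi27 at -0.58 ± 0.156 (adjusted p = 0.773) and Gbp4 at 0.80 ± 0.368 (adjusted p = 0.879), against 5.49% of all genes.

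Isg15, Ifit1 and Rsad2, which are classical interferon targets, did not pass the diet test in either segment. Isg15 read 5.47, 5.47, 5.47 and 5.28 on abdominal HPD arrays and 5.32, 5.56, 5.49 and 5.72 on abdominal SCD arrays. The abdominal difference was -0.10 with a 95% interval of -0.31 to 0.11, and the thoracic one -0.22 with an interval of -0.44 to 0.009. On thoracic arrays it read 5.24, 5.21 and 5.06 on HPD and 5.36, 5.19, 5.51 and 5.47 on SCD, and the groups overlapped in both segments.

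Ifit1 differed by -0.08 in the abdominal aorta (interval -0.36 to 0.20) and by -0.02 in the thoracic aorta (interval -0.32 to 0.29). Rsad2, which encodes the antiviral enzyme viperin, differed by 0.06 (interval -0.38 to 0.50) and -0.21 (interval -0.68 to 0.26). All 6 Ifit genes lay between -0.0995 and 0.18 in the abdominal and -0.23 and 0.26 in the thoracic comparison.

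The 11 Oas genes, whose products switch on the RNA-degrading RNase L, lay between -0.26 and 0.38 in the abdominal and -0.25 and 0.14 in the thoracic comparison. Oas1h read 3.31, 3.30, 3.28 and 3.33 on abdominal HPD arrays and 3.35, 3.58, 3.48 and 3.45 on abdominal SCD arrays, at the dim end of the range, and the difference of -0.16 did not pass although the groups were apart (adjusted p = 0.477). The 6 Ifitm genes, of a family that blocks virus entry at membranes, lay between -0.067 and 0.18 and between 0.0027 and 0.42. Ifitm5 read 6.07, 6.13, 6.06 and 6.05 on abdominal HPD arrays and 5.91, 5.93, 5.94 and 5.82 on abdominal SCD arrays, without overlap, but the difference of 0.18 did not pass (adjusted p = 0.111).

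Among the 7 IRFs, Irf7, which amplifies interferon-alpha production, differed by 0.10 in the abdominal aorta (interval -0.078 to 0.29) and -0.02 in the thoracic aorta (interval -0.22 to 0.17). Stat2, the partner of Irf9, differed by -0.14 (interval -0.37 to 0.084) and -0.06 (interval -0.31 to 0.18). Irf8, a factor of B cells and myeloid cells, differed by 0.62 and 0.32 with neither called, and its other probe set was at 0.47 and -0.05. For 48 of the 54 genes not called in the abdominal comparison and 45 of the 54 in the thoracic one the 95% interval lay within 1 log2 unit of 0. Within 0.5 of 0 it lay for 29 and 25 of them, so smaller changes cannot be told from none.

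**Figure D2:**
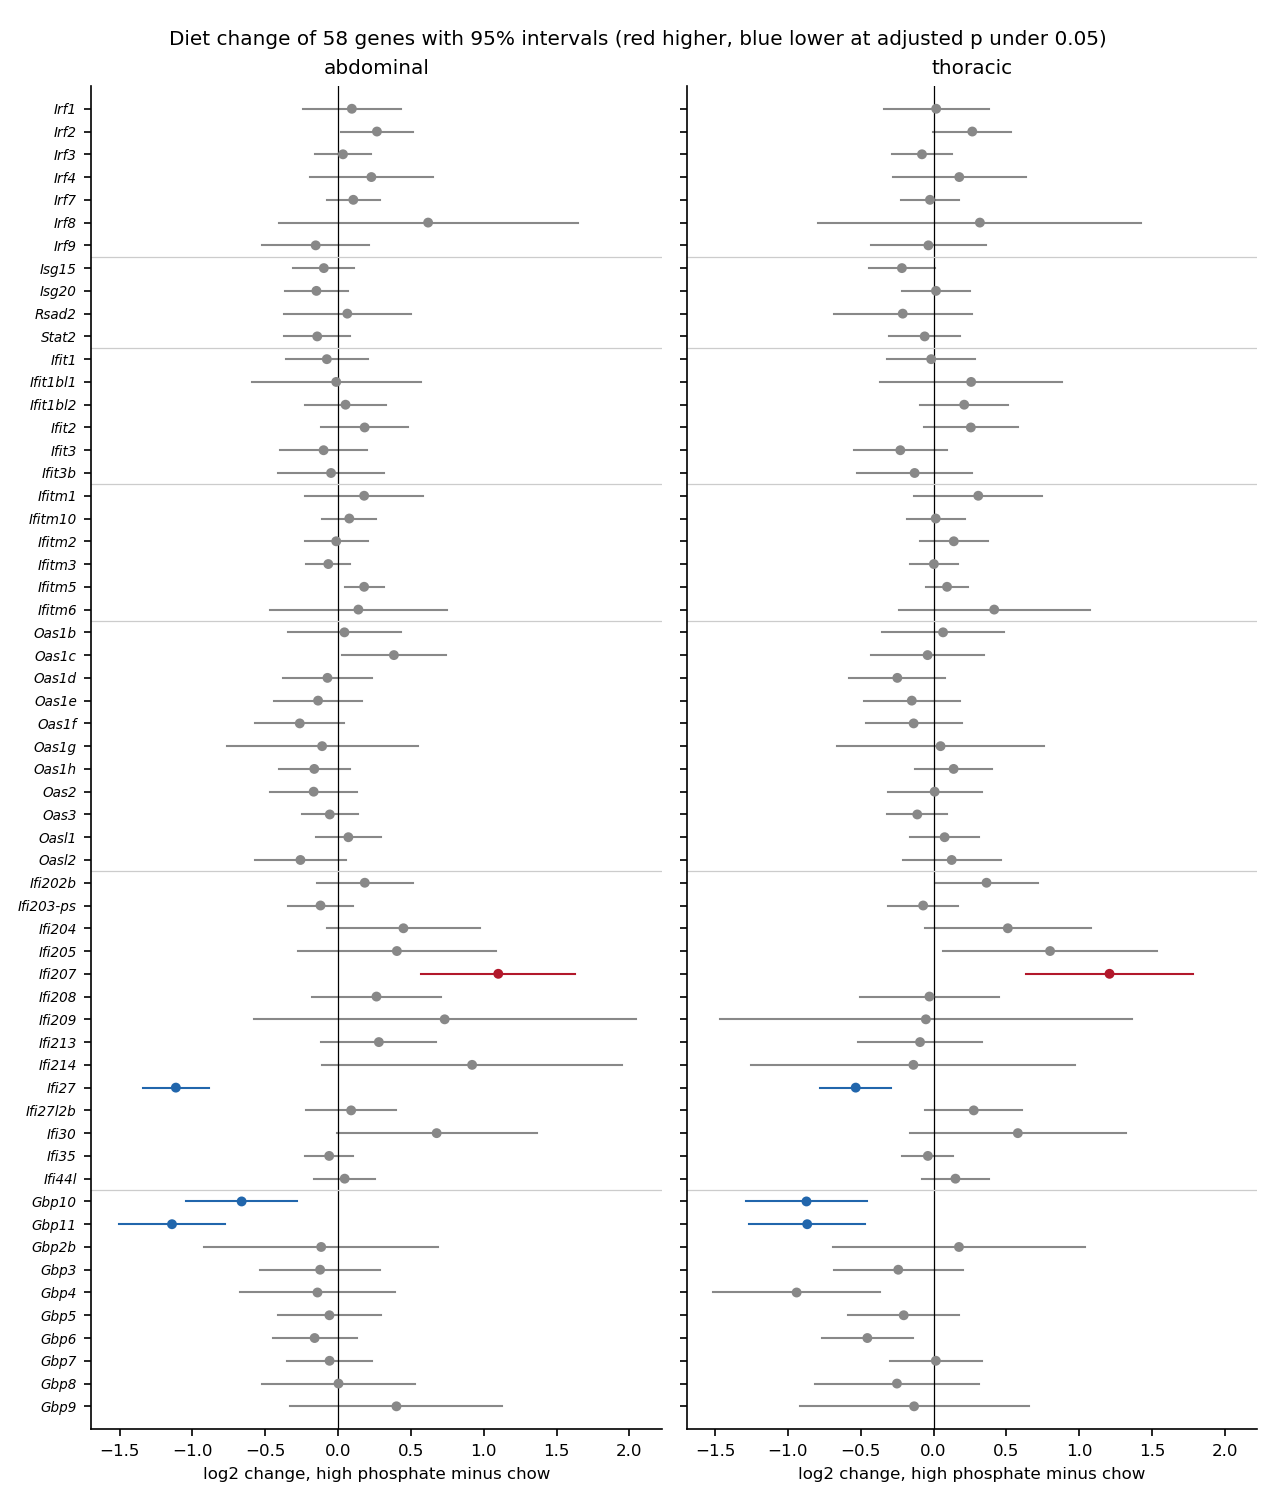
Diet change of each of the 58 genes (log2, high phosphate minus chow) with its 95% interval, abdominal on the left and thoracic on the right. Genes are grouped from top to bottom as IRFs, Isg15 with Isg20, Rsad2 and Stat2, then Ifit, Ifitm, Oas, Ifi and Gbp. Coloured points passed adjusted p under 0.05: Ifi207 to the right of 0 and Ifi27, Gbp10 and Gbp11 to the left in both panels.

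Upstream genes of the pathway were read from lists. Ifngr1, the ligand-binding chain of the interferon-gamma receptor, rose in both segments. It read 9.73, 9.80, 9.86 and 9.81 on abdominal HPD arrays and 9.43, 9.44, 9.02 and 9.35 on abdominal SCD arrays (change 0.49 ± 0.0883, adjusted p = 0.0029). In the thoracic aorta it read 9.91, 9.89 and 9.75 on HPD arrays and 9.36, 9.29, 9.10 and 9.16 on SCD arrays (change 0.62 ± 0.0954, adjusted p = 0.0033). The groups did not overlap in either segment, and Ifngr1 was the 1 gene of 9 receptor and JAK-STAT genes that passed. Genes called higher were 1.95% of all genes in the abdominal and 1.39% in the thoracic aorta, the background for each list count of higher genes.

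No interferon ligand passed the diet test, 0 of 12 in each segment. Among 10 negative regulators 2 rose in the abdominal and 1 in the thoracic aorta, against those 1.95% and 1.39%. Trim24, which represses interferon genes in mouse liver, rose by 0.35 ± 0.0715 (adjusted p = 0.0069) in the abdominal and 0.44 ± 0.0773 (adjusted p = 0.0083) in the thoracic aorta. Irf2bp2, a corepressor bound by Irf2, rose by 0.31 ± 0.0709 (adjusted p = 0.0136) in the abdominal aorta and was at 0.25 (adjusted p = 0.116) in the thoracic aorta. Socs3, a feedback inhibitor of JAK kinases, passed only in the average over segments, at 0.54 ± 0.133 (adjusted p = 0.0156), and its other probe set was at -0.05.

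Of 16 nucleic acid sensors and adaptors, Tlr7, an endosomal RNA receptor, rose in the abdominal aorta by 0.77 ± 0.206 (adjusted p = 0.0346), with overlapping groups, and was at 0.48 in the thoracic aorta (adjusted p = 0.359). Its abdominal call was lost without HPD array 1, 2 or 4 or SCD array 1 or 3 (adjusted p of 0.0896 to 0.13). Of 30 further antiviral genes 1 fell in the abdominal aorta and 0 in the thoracic, against 5.06% and 1.08% of all genes. That gene, Rtp4, a chaperone of membrane receptors, was at -0.61 ± 0.132 (adjusted p = 0.0099) in the abdominal and -0.52 (adjusted p = 0.0718) in the thoracic aorta. None of 17 antigen presentation genes or 4 interferon-inducible chemokines passed in either segment. Nor did any gene of a GTPase list of 5, the immunity-related Iigp1, Igtp, Irgm1 and Irgm2 with Mx1, which the antiviral list also counts.

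Without the 5 abdominal arrays high in lymphocyte markers, with 1 abdominal HPD array left, none of the abdominal calls named from these lists was kept. Ifngr1 was then at 0.63 (adjusted p = 0.147), Trim24 at 0.35 (adjusted p = 0.393) and Irf2bp2 at 0.23 (adjusted p = 0.577). Rtp4 was at -0.59 (adjusted p = 0.351) and Tlr7 at 0.56 (adjusted p = 0.32). Rtp4 was also not called without the arrays high in hepatocyte markers (adjusted p = 0.0622), and Irf2bp2 and Tlr7 were not called with only the groups compared (adjusted p of 0.0718 and 0.12).

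Markers of other cells moved with the diet beside these genes. The brown adipocyte list of 9 genes averaged 7.15 to 7.73 on abdominal HPD arrays and 8.80 to 9.24 on abdominal SCD arrays, and 8.02 to 8.63 on thoracic HPD arrays and 9.21 to 9.47 on thoracic SCD arrays. All 9 fell in the abdominal and 5 in the thoracic aorta, against 5.06% and 1.08% of all genes. The macrophage list of 12 averaged 7.63 to 7.91 on abdominal HPD arrays and 7.23 to 7.57 on abdominal SCD arrays, and 7.62 to 8.16 on thoracic HPD arrays and 7.35 to 7.47 on thoracic SCD arrays. Of these 3 rose in the abdominal and 1 in the thoracic aorta, against 1.95% and 1.39% of all genes. The fibroblast list of 7 had 5 genes that fell in the abdominal and 2 in the thoracic aorta, against 5.06% and 1.08%. Their part in the changes of Ifi27, Gbp10, Gbp11 and Ifi207 was not tested.

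A further comparison set the segments against each other, which the sampling of both allows. On HPD, 10 genes were called, 17.2% of the 58, against 13.8% of all genes. Ifi209, Ifi214, Ifi213, Irf8, Gbp9, Gbp4 and Stat2 were lower, and Ifi27, Ifitm2 and Gbp8 higher, in the thoracic aorta. The 7 lower genes stand against 6.25% and the 3 higher against 7.57% of all genes. In 10 genes that were lower and 5 that were higher the segments did not overlap, against 10.1% and 13.7%. The median difference was -0.13, against 0.038 over all genes. These comparisons use the same arrays as the diet comparisons.

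Ifi209, a PYHIN gene also named Pyhin1, differed most in log2 units. It read 5.13, 5.46 and 5.59 on thoracic HPD arrays and 8.99, 8.95, 6.46 and 8.75 on abdominal HPD arrays. Abdominal array 3 stood well below the other abdominal values and still above the thoracic ones. The difference was -2.89 ± 0.664 (adjusted p = 0.0104).

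Irf8 read 6.51, 6.83 and 6.30 on thoracic HPD arrays and 9.14, 8.94, 6.86 and 8.32 on abdominal HPD arrays. Array 3 again sat near the thoracic values, and the difference was -1.77 ± 0.52 (adjusted p = 0.0349), with -0.95 ± 0.273 from the other Irf8 probe set. Ifi27, Ifitm2, Ifi209 and Ifi213 kept their calls on leaving out each of the 15 arrays. Gbp4 lost its call without thoracic HPD array 1 (adjusted p = 0.0519), and Gbp8 without abdominal HPD array 2 or thoracic HPD array 1 or 3 (adjusted p of 0.06 to 0.103). Ifi214 and Irf8 lost theirs without any 1 of the HPD arrays except abdominal array 3 (adjusted p of 0.0586 to 0.107), Gbp9 in 10 and Stat2 in 11 of the 15 omissions.

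Ifi214 read 2.96, 3.13 and 3.10 on thoracic HPD arrays and 5.32, 5.77, 3.47 and 5.38 on abdominal HPD arrays, a difference of -1.92 ± 0.521 (adjusted p = 0.024). Ifi213 read 3.88, 3.82 and 4.33 on thoracic HPD arrays and 5.16, 4.88, 4.63 and 5.26 on abdominal HPD arrays, a difference of -0.97 ± 0.2 (adjusted p = 0.0055). In both PYHIN genes abdominal array 3 was the lowest of its group, and no value overlapped. Gbp9 differed by -1.17 ± 0.368 (adjusted p = 0.0479), with overlap between segments. Gbp4 differed by -1.10 ± 0.27 (adjusted p = 0.0148), and its thoracic values, given above, lay below all 4 abdominal ones.

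Several genes had segments apart on HPD but did not pass the test. Gbp7 read 7.53, 7.46 and 7.33 on thoracic HPD arrays and 8.02, 7.98, 7.54 and 7.88 on abdominal HPD arrays (adjusted p = 0.0795). Ifi208 read 4.55, 4.42 and 4.46 against 5.68, 4.93, 4.70 and 5.26 (adjusted p = 0.0609), and the pseudogene Ifi203-ps 6.23, 6.30 and 6.02 against 6.42, 6.52, 6.68 and 6.32 (adjusted p = 0.0922), thoracic HPD against abdominal HPD arrays. These 3 had the lower values in the thoracic aorta. Oas1h stood higher there, at 3.40, 3.75 and 3.79 on thoracic HPD arrays and 3.31, 3.30, 3.28 and 3.33 on abdominal HPD arrays (adjusted p = 0.0782). Isg15, with its values given above, differed by -0.26 (adjusted p = 0.127). Ifit1bl1 read 5.10, 5.25 and 5.38 on thoracic HPD arrays and 5.96, 5.71, 5.42 and 5.61 on abdominal HPD arrays, a difference of -0.43 (adjusted p = 0.364). Ifitm3, read 10.76, 10.80 and 10.79 on thoracic HPD arrays and 10.69, 10.58, 10.63 and 10.67 on abdominal HPD arrays, a difference of 0.14 (adjusted p = 0.248).

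Higher in the thoracic aorta on HPD were Ifi27, by 0.81 ± 0.114 (adjusted p = 0.000525), and Ifitm2, by 0.50 ± 0.109 (adjusted p = 0.0076). Ifitm2 read 9.27, 9.36 and 9.26 on thoracic HPD arrays and 8.84, 8.53, 8.87 and 8.93 on abdominal HPD arrays, without overlap. The cardiac muscle list of 8 also stood higher there, at 8.75 to 9.34 on thoracic HPD arrays and 6.13 to 6.36 on abdominal HPD arrays. So did 8 of 8 smooth muscle and 6 of 9 brown adipocyte genes by the test, against 7.57% of all genes. The part of these tissues was not tested.

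On SCD, 2 genes were called, 3.45% of the 58, against 4.78% of all genes, and both were also called on HPD. The 1 higher gene stands against 1.76% and the 1 lower against 3.02%. Without any overlap were 3 genes that were higher and 8 that were lower in the thoracic aorta, against 6.01% and 5.97% of all genes. Gbp8, at an end of the measured chromosome 5 cluster, read 8.72, 8.20, 9.08 and 9.01 on thoracic SCD arrays and 7.44, 7.26, 7.29 and 8.07 on abdominal SCD arrays. The groups did not overlap, and the difference was 1.24 ± 0.245, or 2.36-fold (adjusted p = 0.0085). On HPD it read 8.60, 8.04 and 8.86 on thoracic arrays and 7.72, 7.42, 7.02 and 7.92 on abdominal arrays, a difference of 0.98 ± 0.264 (adjusted p = 0.0232).

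Stat2 read 6.67, 6.79, 6.58 and 6.77 on thoracic SCD arrays and 6.96, 7.15, 7.08 and 7.41 on abdominal SCD arrays. It was lower in every thoracic array, by 0.45 ± 0.107 on the log2 scale (adjusted p = 0.0257), and on HPD the difference was -0.36 ± 0.115 (adjusted p = 0.0488). Its SCD call was lost without abdominal SCD array 4 or thoracic SCD array 1, 3 or 4 (adjusted p of 0.0527 to 0.094), and that of Gbp8 was kept on leaving out each array. Gbp2b, Gbp7 and Ifi209 were not called on SCD, at -1.35 (adjusted p = 0.0543), -0.48 (adjusted p = 0.0569) and -2.11 (adjusted p = 0.0651), although their groups did not overlap. Gbp2b read 4.84, 4.34, 5.16 and 5.00 on thoracic SCD arrays and 5.38, 6.43, 5.63 and 7.31 on abdominal SCD arrays. Ifi209 read 5.72, 4.98, 5.64 and 5.45 on thoracic SCD arrays and 6.25, 8.65, 6.37 and 8.95 on abdominal SCD arrays.

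The spread of both genes lay mainly among the abdominal arrays. Irf8 read 6.09, 6.34, 6.40 and 6.09 on thoracic SCD arrays and 6.84, 8.34, 6.75 and 8.86 on abdominal SCD arrays, a difference of -1.47 (adjusted p = 0.101). The other Irf8 probe set differed by -0.43. Ifit1 read 6.66, 6.54, 6.58 and 6.66 on thoracic SCD arrays and 6.78, 6.82, 7.43 and 7.14 on abdominal SCD arrays, a difference of -0.43 (adjusted p = 0.077). In both, all thoracic values were the lower ones.

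Oasl2, which encodes an Oas-like protein, read 6.75, 6.29, 6.95 and 6.95 on thoracic SCD arrays and 7.04, 6.98, 7.51 and 7.30 on abdominal SCD arrays, a difference of -0.47 (adjusted p = 0.0814). Gbp7 read 7.45, 7.31, 7.51 and 7.43 on thoracic SCD arrays and 7.66, 8.00, 7.66 and 8.32 on abdominal SCD arrays. Ifi203-ps read 6.28, 6.18, 6.37 and 6.19 on thoracic SCD arrays and 6.41, 6.85, 6.58 and 6.59 on abdominal SCD arrays, a difference of -0.35 (adjusted p = 0.0715). Ifitm2 and Ifitm5 had the higher values in the thoracic aorta. Ifitm2 read 9.12, 9.12, 9.12 and 9.27 on thoracic SCD arrays and 9.08, 8.81, 8.59 and 8.74 on abdominal SCD arrays, a difference of 0.35 (adjusted p = 0.0612). Ifitm5 read 6.06, 6.02, 6.06 and 5.99 on thoracic SCD arrays and 5.91, 5.93, 5.94 and 5.82 on abdominal SCD arrays, a difference of 0.13 (adjusted p = 0.266).

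**Figure D3:**
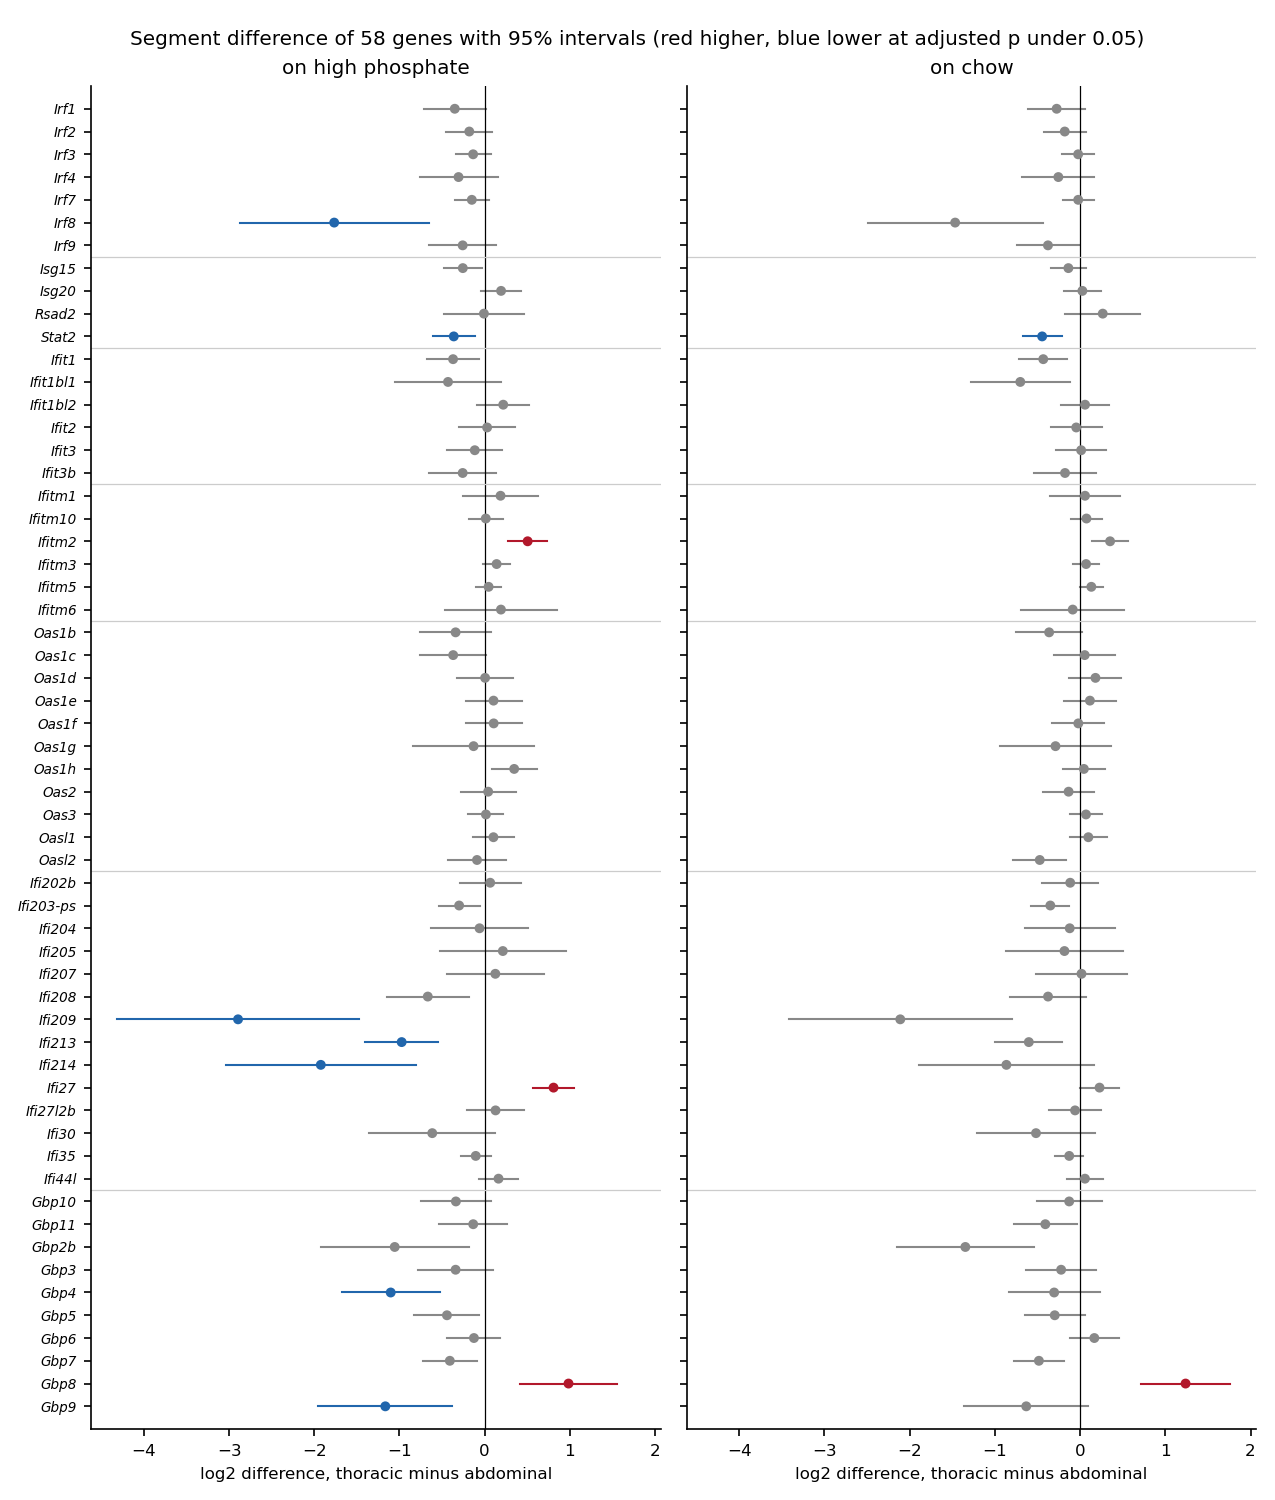
Segment difference of each of the 58 genes (log2, thoracic minus abdominal) with its 95% interval, on high phosphate at the left and on chow at the right, in the same gene order as the diet plot. Blue points are lower and red points higher in the thoracic aorta at adjusted p under 0.05. On high phosphate 7 are blue and 3 red, and on chow Stat2 is blue and Gbp8 red.

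Of the 7 genes called lower in the thoracic aorta on HPD, all but Stat2 were higher on each abdominal array high in lymphocyte markers than on the other abdominal arrays. Stat2 read 6.99 to 7.41 on the 5 high arrays and 6.80 to 7.08 on the other 3. In 20 of the 58 genes the 5 arrays high in T and NK cell markers all lay above the other 3 abdominal arrays, against 6.34% of all genes, and in 0 they all lay below, against 4.29%. Ifi209 averaged 8.86 on the 5 arrays and 6.36 on the other 3, and Irf8 averaged 8.72 and 6.81. The PYHIN gene Ifi214, the antigen-processing enzyme gene Ifi30 and the GTPase genes Gbp9 and Gbp2b also differed by over 1 log2 unit. This description compares arrays set apart by marker level, not groups of the study, and carries no test.

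The T cell receptor component Cd3e read 8.83, 8.47, 5.84 and 8.05 on abdominal HPD arrays and 5.59, 7.59, 5.56 and 8.23 on abdominal SCD arrays. Glycam1, of the high endothelial venules of lymph nodes, was at 8.95 on abdominal SCD array 1, at 12.17 to 12.78 on the other 7 abdominal arrays and at 6.28 to 6.76 on thoracic arrays. Of the T and NK cell list 9 of 11 genes were called lower in the thoracic aorta on HPD, and of the B and plasma cell list 6 of 9. Of all genes 6.25% were called lower.

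**Figure D4:**
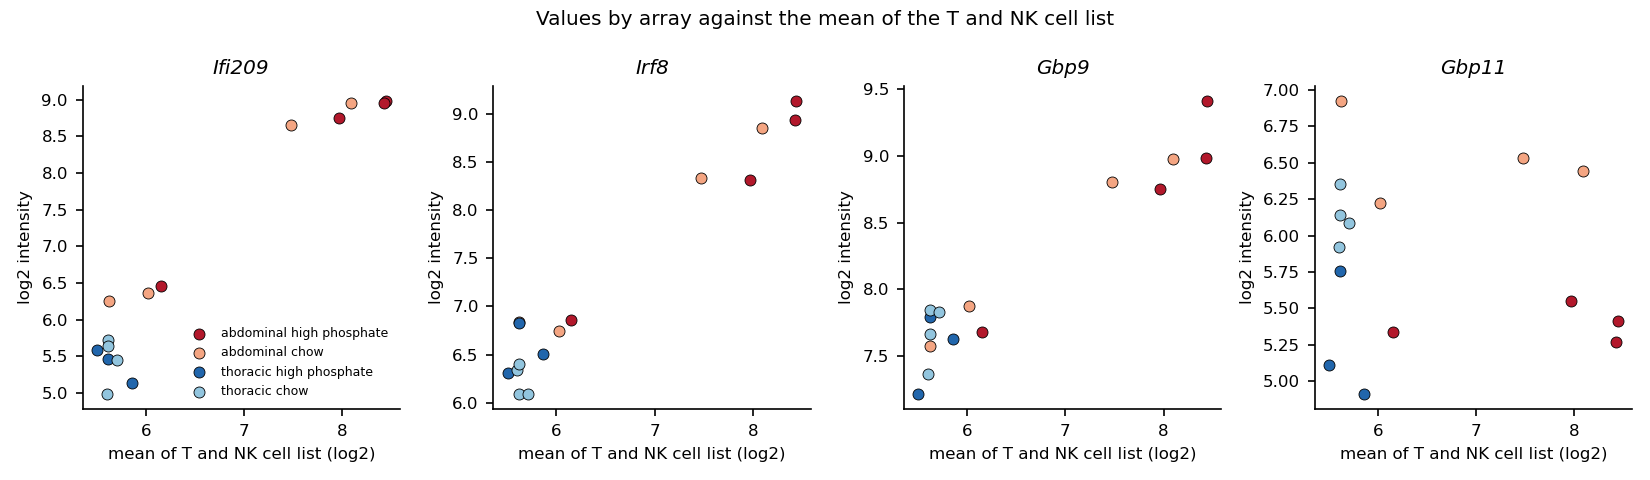
Log2 intensity of Ifi209, Irf8, Gbp9 and Gbp11 on each of the 15 arrays against the mean of the T and NK cell list on that array (log2). The 5 abdominal arrays at a list mean of 7.47 to 8.44 are the highest for Ifi209, Irf8 and Gbp9, whereas Gbp11 lies by diet, with abdominal high-phosphate arrays at 5.27 to 5.55.

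Without those 5 arrays 0 of the 58 genes were called between segments on HPD and 1 on SCD, Gbp8 at 1.39 (adjusted p = 0.0182), with a single abdominal HPD array left. With the lymphocyte mean (T and NK cell list with B and plasma cell list) as a covariate 3 were called on HPD. These were Gbp8 at 1.48, Ifi27 at 0.60 and Ifi30 at 0.63, and Irf8 and Gbp9 turned to 0.09 and 0.12. On HPD the T and NK cell mean was 6.15 to 8.44 on abdominal and 5.50 to 5.86 on thoracic arrays. The B and plasma cell mean was 5.92 to 7.89 and 5.45 to 5.53. The covariate thus follows the segment, and this fit cannot tell lymphocytes from segment. The HPD count was 18 without abdominal HPD array 3 and 5 or 6 without abdominal HPD array 1, 2 or 4 or thoracic HPD array 1 or 3. The SCD count was 10 without abdominal SCD array 1 and 6 without abdominal HPD array 3. It was 3 or 4 without abdominal HPD array 2 or abdominal SCD array 2 or 3. Without abdominal SCD array 4 or thoracic SCD array 1, 3 or 4 it was 1. The share of all genes called in each of these fits is not given here, so the counts are not a result about the 58 genes alone.

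Of the pathway lists, 6 of 30 further antiviral genes, 4 of 17 antigen presentation genes, 2 of 16 sensors, 1 of 10 negative regulators and 1 of 4 chemokines were called lower in the thoracic aorta on HPD, against 6.25% of all genes. None of these lists had a gene called higher. The 12 ligands, 9 receptor and JAK-STAT genes and 5 genes of the GTPase list had 0 called in either direction. Ccl5, a chemokine of T and NK cells, read 7.51, 7.55 and 7.51 on thoracic HPD arrays and 11.52, 11.51, 8.55 and 11.46 on abdominal HPD arrays (difference -3.24 ± 0.776, adjusted p = 0.0132). With the lymphocyte mean as a covariate Ccl5 was at -0.44 (adjusted p = 0.584). Aim2, a DNA sensor of the PYHIN family, differed by -1.59 ± 0.443 (adjusted p = 0.0275), and its abdominal array 3 at 6.72 sat near the thoracic 6.26, 6.66 and 6.30. The Aim2 call was lost without any 1 of the HPD arrays except abdominal array 3 (adjusted p of 0.0516 to 0.0886), and Aim2 was at 0.0077 with the covariate (adjusted p = 0.992). Because the covariate follows the segment on HPD, as given above, the Ccl5 and Aim2 values cannot separate the lymphocyte mean from the segment. On SCD none of the pathway genes was called between segments.

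Across the 6 comparisons 45 of the 58 genes passed none, 4 passed a diet comparison and 10 a segment comparison. Ifi27 was the 1 gene in both kinds.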

How the data were processed

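Total RNA from abdominal and thoracic aorta was measured on 15 arrays. The deposited values are log2 intensities, 1 per probe set and array. Partek and RMA are named in the submitters' processing notes, which state neither versions nor roles. The values span 1.38 to 13.33, from which the log base was inferred, and the medians of the arrays span 5.78 to 5.84. The array's genome build is not given in the sources used here, so no gene coordinates from RefSeq are printed beside array values, and the signal over background is unknown. Precision is limited by how many arrays each group has.

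Of 41345 probe sets, 23521 name 1 gene in the platform annotation and 1814 several, and 16010 are unnamed there. The brightest probe set by mean over 15 arrays stood for each of 22180 genes. All 58 genes matched RefSeq symbols, and 2 of them, Ifi35 and Irf8, have several probe sets. No filter on dim genes was applied, and 11 of the 58 lie below the 30th percentile of mean intensity. The 9 probe sets that name a gene of the family and another gene were tested on their own.

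Arrays were grouped by title. The 4 group means were estimated by limma 3.58.1 under R 4.3.3 (lmFit, then eBayes with trend, 11 residual degrees of freedom), and p-values, two-sided, were Benjamini-Hochberg adjusted over all genes, with calls at adjusted p under 0.05. Intervals are 95% intervals of the fit. The fitting code was tested on simulated data. Figures were drawn with matplotlib 3.10.9. The genes, marker and pathway lists, tests and naming rule were chosen with earlier results of these data known. Any of the 58 genes could be named, called genes first, then the 4 with the smallest p per comparison; genes of the lists were named if called or among the 4 smallest p. Marker lists are given as means of log2 values. Alternatives changed the variance prior, the dim-gene filter, the arrays fitted, the normalization, centring, array weights, a replicate block, the probe set rule and a lymphocyte covariate, and left out each array. Fits without abdominal arrays high in lymphocyte markers (T and NK mean over 6.5) or hepatocyte markers (mean over 7) and the test of probe sets naming several genes were added after seeing the data.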

Additional observations from a re-analysis of the deposited data

Results flagged for a closer look

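In 12 of 174 groups of 4 arrays, 1 array lay far from the other 3 by Dixon's criterion, and chance gives about 1 in 20. Abdominal HPD array 3 was the one in 5 of them. It read 5.04 for Gbp2b (others 6.33 to 6.57), 6.33 for Gbp3 (others 7.12 to 7.26), 6.46 for Ifi209 (others 8.75 to 8.99), 5.89 for Oas2 (others 6.31 to 6.38) and 9.86 for Ifi27 (others 9.64 to 9.67). Its T and NK cell mean was 6.15, and the other 3 arrays of the group had 7.97 to 8.44. Its hepatocyte mean was 8.18. Their part in these values was not tested.

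Abdominal HPD array 4 read 5.28 for Isg15, and the others read 5.47. Abdominal SCD array 2 read 6.98 for Ifitm6 (others 5.94 to 6.12), abdominal SCD array 3 read 6.76 for Rsad2 (others 6.44 to 6.48) and abdominal SCD array 4 read 5.46 for Oas1e (others 5.33). The mean of 8 neutrophil markers was 7.49 on abdominal SCD array 2 and 4.94 to 5.41 on the other abdominal SCD arrays. Its part in the Ifitm6 value was not tested. Thoracic SCD array 2 read 5.91 for Oas1e (others 5.31 to 5.38) and 3.86 for Oas1h (others 3.37 to 3.43). Thoracic SCD array 4 read 9.27 for Ifitm2 (others 9.12).

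Probe sets that name several genes were outside the comparisons. Among 1814 of them, tested apart with limma, the probe set naming Ifi27l2a and Ifi27l2b changed with the diet by -1.10 ± 0.217 in the abdominal aorta (adjusted p = 0.0097), with means of 6.21 ± 0.32 on HPD arrays and 7.31 ± 0.36 on SCD arrays (SD, n = 4 each). It was at -0.27 in the thoracic aorta (adjusted p = 0.782) and at -0.68 in the average (adjusted p = 0.0144). The probe set naming Ifi211 and Ifi204 was at 0.40 in the average (adjusted p = 0.0368), at 0.41 in the abdominal aorta (adjusted p = 0.15) and at 0.39 in the thoracic aorta (adjusted p = 0.419).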

How the results depend on the processing

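The average diet calls of Ifi27, Gbp11, Ifi207 and Gbp10 held under each of the 25 alternatives, and abdominal Ifi27 under each of its 26. The abdominal count of 4 became 2 with only the groups compared, 1 without the arrays high in lymphocyte markers, 2 without those high in hepatocyte markers, and 3 to 6 when single arrays were left out. The thoracic count of 4 ranged over 0 to 5 on leaving out single arrays. The average count of 4 became 8 with array weights (4 higher, 4 lower), 8 with the lymphocyte covariate (2 higher, 6 lower) and 5 with quantile normalization (2 higher, 3 lower), and 4 to 7 on leaving out single arrays. The difference of diet changes had 0 calls throughout. The HPD segment count of 10 became 3 with the lymphocyte covariate, 0 without the lymphocyte-high arrays and 16 without the hepatocyte-high arrays, and 5 to 18 on leaving out single arrays. The SCD segment count of 2 became 5 without dim genes, 5 with quantile normalization, 7 with array weights, 4 with the replicate block, 1 with the lymphocyte covariate, 1 without the lymphocyte-high and 6 without the hepatocyte-high arrays, and 1 to 10 on leaving out single arrays. With the lymphocyte covariate the HPD segment difference turned to 0.12 for Gbp9, 0.0906 for Irf8, 0.15 for Ptpn6, 0.0077 for Aim2 and 0.0125 for H2-Ab1. That covariate was higher on every abdominal than on every thoracic HPD array, so these turns cannot separate lymphocytes from segment. The share of all genes called in each alternative fit of this section is not given here. A count can rise or fall with that share, so these shifts are not a result about the interferon genes alone. The fits without marked arrays hold fewer arrays, and the cause of the other shifts was not tested. No label says that replicate numbers pair arrays, so the numbers were not taken as pairs. Same-numbered arrays of different groups correlated at -0.25 to 0.40 in their deviations from group means. Between segments on the same diet the values were 0.03 to 0.12. Differently numbered arrays were not compared, so these values cannot decide whether arrays share an animal. With the replicate block the other counts were 4 (abdominal), 3 (thoracic), 6 (average), 0 (difference) and 8 (HPD segments). No scaling moved the median of all genes by over 0.1.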

Other observations

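Between segments, some probe sets that name several genes also passed the test, adjusted over the 1814 of their kind. On HPD the probe set of the PYHIN genes Ifi203 and Ifi203-ps, which also names LOC100862473, averaged 6.77 on thoracic and 7.98 on abdominal arrays, a difference of -1.20 ± 0.246 (adjusted p = 0.0039). A probe set naming Olfr56 and Ifi47 averaged 4.96 on thoracic HPD and 5.61 on abdominal HPD arrays, a difference of -0.65 ± 0.219 (adjusted p = 0.0428). The probe set of Ifi27l2a and Ifi27l2b averaged 7.23 on thoracic HPD and 6.21 on abdominal HPD arrays, a difference of 1.02 ± 0.235 (adjusted p = 0.0065). A probe set naming Ifitm7 and Bmerb1 was lower in the thoracic aorta on both diets, by -0.75 ± 0.157 on HPD (adjusted p = 0.0042) and -0.61 ± 0.145 on SCD (adjusted p = 0.0115), while the other probe set naming both was at -0.16 and -0.02.

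Of the 23 genes whose promoter held the ISRE core, 1, Ifi207, was called in either diet comparison, and of the 21 without it 0 were. The 44 do not include Ifi27, Gbp10 or Gbp11, which fell. The median abdominal diet change was -0.05 with the core and 0.09 without it. The median segment difference on HPD was -0.26 with the core and 0.01 without it. These are descriptions, with no test.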
